A study of Mus musculus with 36 samples.

Results

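Rod photoreceptors of mice at postnatal day 6 (P6, 3 libraries) were compared with rods at postnatal days 2 and 4 (P2 and P4, 2 libraries each), the 4 earlier libraries being pooled as 1 group. These are 7 of the 33 libraries with values in a study of fibroblasts turned into photoreceptor-like cells with chemicals, in which rods of several ages served as reference. All 7 carried the Nrl-GFP transgene, a green fluorescent protein reporter of the Nrl promoter. The labels name the material isolated rods and the protocol states sorting by that reporter, with no drug or mutation named for the rods. Per the labels, all 7 libraries were first deposited in an older series. A sort on this reporter selects cells in which the Nrl promoter is or was active, and the purity of the sort was not analysed here. The labels do not say whether libraries came from separate animals or litters, so p-values measure only the spread between these libraries.

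In the mouse retina, many rods leave the cell cycle around and after birth. The transcription factors Otx2 and Crx set up photoreceptor fate, Nrl and its target Nr2e3 fix rod over cone fate, and the genes of the light response come on over the following weeks. Bipolar cells, the interneurons that receive rod and cone signals, are born in the same postnatal period from related precursors. Müller glia are born last, from the remaining progenitors.

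The values are the authors' normalized CPM, reads per gene scaled to the size of the library, and changes are differences of means on log2(CPM + 1), P6 minus the 4 earlier libraries. This scale understates the change of genes near 0 CPM. A gene was called at a Benjamini-Hochberg adjusted p under 0.05 in limma and a fold of at least 2. Of 15289 genes, the 13134 that reached 1 CPM in 3 or more of the 7 libraries were tested. Column sums ran from 719752 to 835398. The rod genes Nrl, Crx, Nr2e3 and Sag were all above 400 CPM in each library. Cone and progenitor genes, described below, were detected as well.

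At P6, the genes called higher included the bipolar cell genes Grm6 and Vsx1, which had the largest rises, and the rod genes Slc24a1, Pde6a, Esrrb and Rcvrn, as well as Trnp1 and Car10, which are in no list used here. The genes called lower included Uhrf1, Top2a, Birc5 and Mki67, and 26 of the 160 rows called lower were in the cell cycle list. Most calls were in no list: the lists below held 32 of the 108 called higher and 34 of the 160 called lower. The cell cycle list has 38 genes and is not a full set, so a called gene outside it can still serve cell division. In all, 268 genes were called (2.04% of those tested), 108 higher (0.822%) and 160 lower (1.22%) at P6. The median change was 1.40 among the genes called higher, -1.63 among those called lower and 0.01 over all genes tested. For all 268, the 3 P6 libraries lay outside the range of the 4 earlier ones. Over all genes tested the P6 libraries lay all above in 9.12% and all below in 8.08%. An unadjusted p under 0.05 in limma was found for 2442 of the 13134 genes tested, both directions together. Here and below, fewer cells of a type and less RNA per cell cannot be told apart, since each library is a bulk sample.

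**Figure D1:**
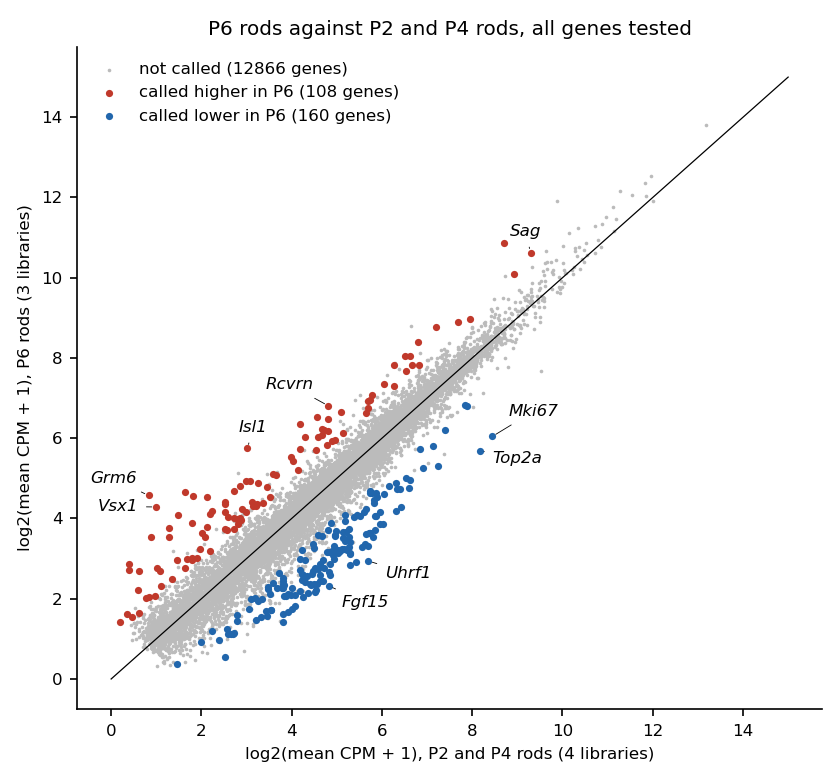
Mean level at P6 (y axis, 3 libraries) against the mean of P2 and P4 (x axis, 4 libraries), both as log2(mean CPM + 1), for 13134 genes. Red points are the 108 genes called higher, blue points the 160 called lower, grey points the others, and the line marks equal levels.

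The same direction was seen earlier for most of these genes. The P4 mean lay above the P2 mean for 99 of the 108 genes called higher, against 51.4% of all genes tested, and below it for 160 of the 160 called lower. That difference is part of the spread of the pooled earlier group. When P2, P4 and P6 were fitted as 3 groups, with P6 still set against the mean of P2 and P4, 447 genes were called (3.40%), 155 higher (1.18%) and 292 lower (2.22%), among them all 108 and 160 of the pooled fit. Against P4 alone, 51 of 12852 genes were higher (0.397%) and 45 lower (0.350%), and 45 and 44 of these were also called in the pooled fit.

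The number of calls in the pooled fit rests on single libraries. It was 71 higher and 76 lower without P2 replicate 1, 20 and 16 without P2 replicate 2, and 174 and 311 without P4 replicate 1. It was 11 and 7 without P6 replicate 1, 0 and 0 without P6 replicate 2 (1940 genes at an unadjusted p under 0.05 in limma), and 5 and 0 without P6 replicate 3. With 3 age groups fitted, leaving out each library in turn gave 144 to 172 genes higher and 226 to 394 lower. Each of the called genes that was tested kept its direction in all 14 of these fits. That was fixed in advance, since for every called gene the P6 libraries lay outside the range of the earlier ones.

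**Figure D2:**
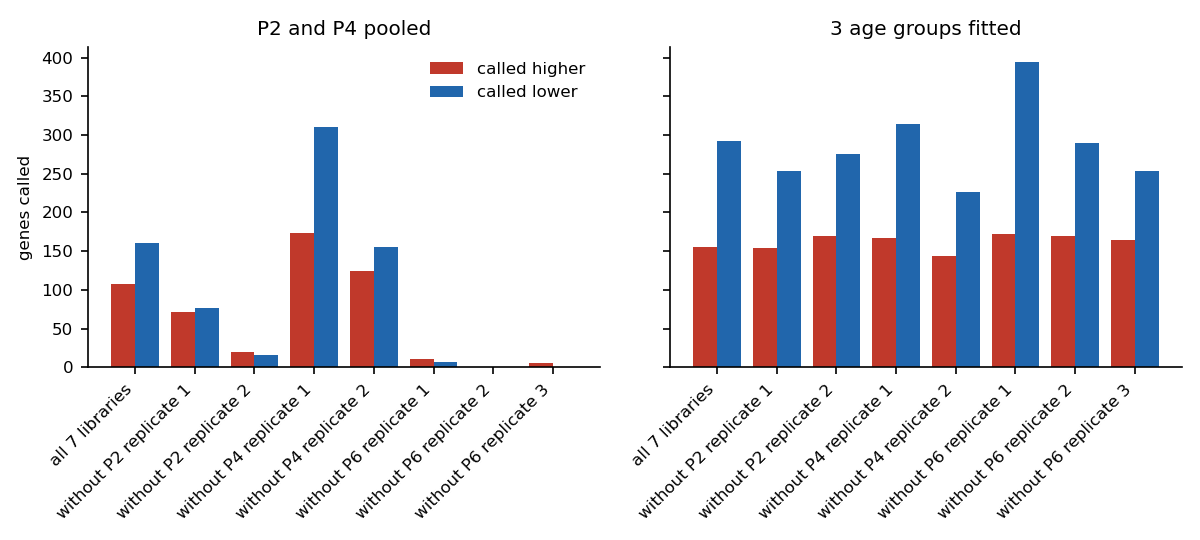
Genes called higher (red) and lower (blue) at P6, with all 7 libraries and with each library left out, with P2 and P4 pooled (left) and with P2, P4 and P6 as 3 groups (right). In the left panel the bars fall to 0 without P6 replicate 2, and in the right panel they stay between 144 and 394.

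Most of the listed photoreceptor transcription factors were not called. The list also holds factors of other retinal cells, such as Thrb, Rxrg and Tbx2, which are in the cone list too, and Onecut1 and Onecut2, which are in that of amacrine, horizontal and ganglion cells. Of its 27 factors, 2 were called higher and 0 lower, against 0.822% and 1.22% of all genes tested. Of the 27, 7 were higher and 5 lower at an unadjusted p under 0.05 in limma, and the median change was 0.15. In the fit with 3 age groups, 3 were called higher and 1 lower. Nrl, the basic leucine zipper factor that commits cells to rod fate (GRCm38 chromosome 14, 55518978 to 55524981 on the minus strand), was at 698 and 682 CPM at P2, 972 and 780.2 CPM at P4, and 1364, 1348 and 1229.9 CPM at P6. Its change was 0.76 ± 0.18 (SE, adjusted p = 0.0499), which passes the p threshold but not the 2-fold threshold. All P6 libraries lay above the earlier ones.

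Nr2e3, the nuclear receptor that represses cone genes in rods, was at 1011 and 858 CPM at P2, 1102 and 1149 CPM at P4, and 1795, 2001 and 1491 CPM at P6, with a change of 0.77 ± 0.19 (SE, adjusted p = 0.0579). Crx, the homeodomain activator of photoreceptor genes, was at 1104 and 1067 CPM at P2, 1448 and 1348 CPM at P4, and 1443, 1813 and 1860.5 CPM at P6, with a change of 0.46 ± 0.20 (SE, adjusted p = 0.248). The groups overlapped for Crx, since P6 replicate 1 lay below P4 replicate 1, and did not overlap for Nr2e3. Neither gene was called. Otx2 (0.03, adjusted p = 0.96) and Neurod1 (0.01, adjusted p = 0.994), both abundant at all 3 ages, did not pass.

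Esrrb, an orphan nuclear receptor needed for rod survival, was at 0.789 and 0.681 CPM at P2, 2.03 and 2.25 CPM at P4, and 10.1, 10.9 and 10.8 CPM at P6. It rose by 2.31 ± 0.27 (SE, adjusted p = 0.00991), the 3 P6 libraries being close together and well above the rest, and its mean went on to 271 CPM at P10 and 1460.0 CPM at P28. Ahr, the aryl hydrocarbon receptor, also rose, from 4.53 to 9.24 CPM in the earlier libraries to 12.9 to 21.5 CPM at P6, a change of 1.21 ± 0.27 (SE, adjusted p = 0.0444). The count of 2 was 1 without P2 replicate 2 or P6 replicate 1, and 0 without P6 replicate 2 or 3.

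**Figure D3:**
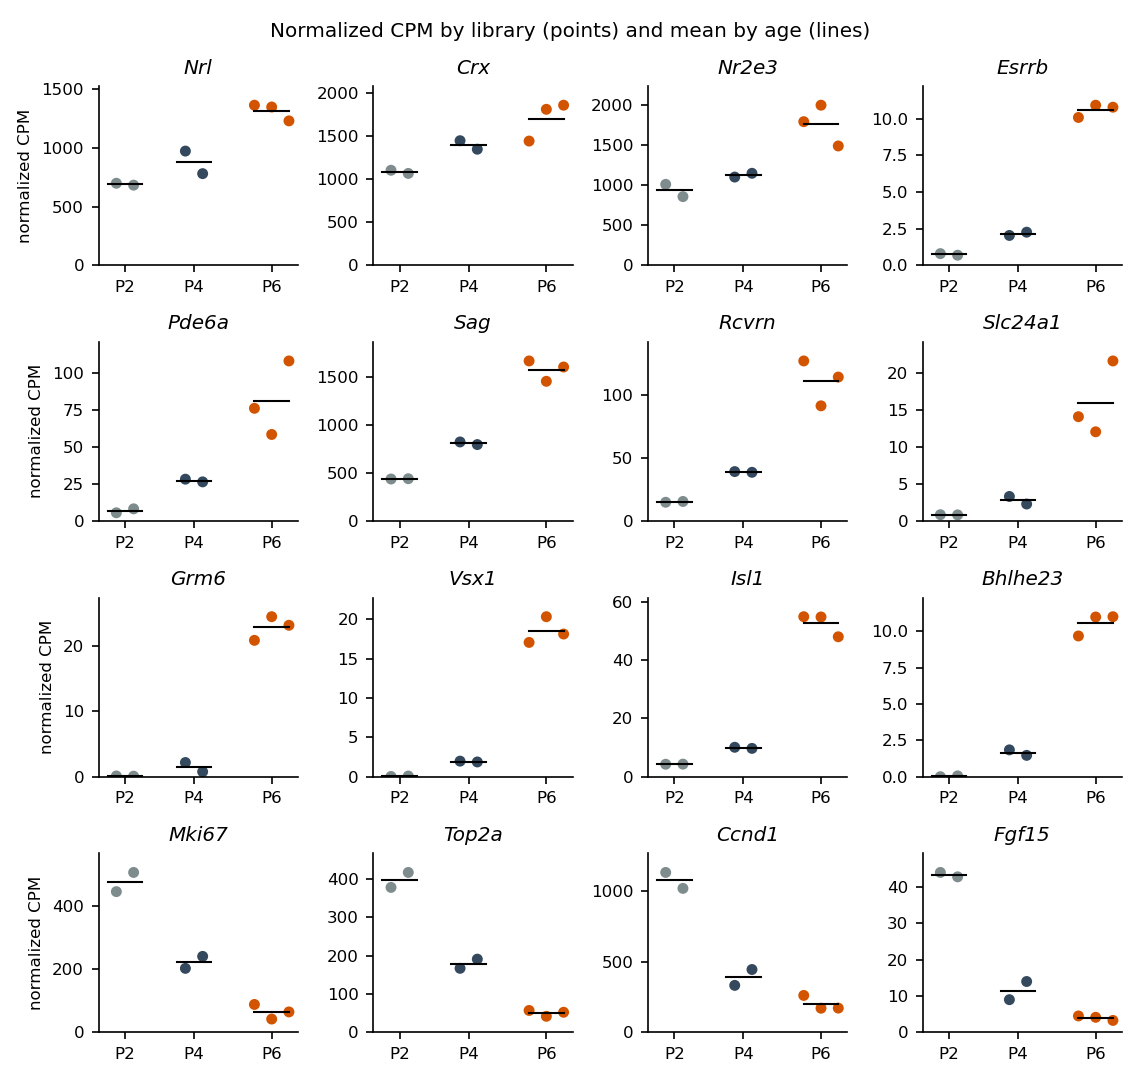
Normalized CPM (y axis, linear, from 0) of 16 genes in each library at P2, P4 and P6. Points are libraries and lines are the means of each age. Points for P6 lie above all others for Nrl, Nr2e3 and Bhlhe23, overlap for Crx, and lie below all others for the 4 genes of the bottom row.

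Phototransduction genes, which turn the capture of light into a membrane current, gave 12 calls higher and 0 lower among 25 tested, and 13 were not called. All 25 listed genes had a positive change and an unadjusted p under 0.05, the median change was 1.35 against 0.01 over all genes tested. In 23 of the 25 the P6 libraries lay above the 4 earlier ones. With 3 age groups fitted 19 were called. The pooled count was 8 without P2 replicate 1, 2 without P2 replicate 2, 19 without P4 replicate 1, and 2, 0 and 1 without P6 replicates 1, 2 and 3.

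Sag, rod arrestin, which helps to end the light response (GRCm38 chromosome 1, 87803680 to 87845158 on the plus strand), was at 438 and 441 CPM at P2, 826 and 798 CPM at P4, and 1672, 1459.7 and 1609 CPM at P6. It rose by 1.40 ± 0.26 (SE, adjusted p = 0.0268). Rcvrn, recoverin, a calcium sensor of the light response, was at 14.8 and 15.5 CPM at P2, 39.3 and 38.7 CPM at P4, and 127, 91.6 and 114 CPM at P6. It rose by 2.13 ± 0.35 (SE, adjusted p = 0.0205), and for both genes the P4 libraries lay between those of P2 and P6.

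The promoter of Sag is shown because arrestin is the anchor of this group for which the reference held a promoter. The 250 bases before the annotated start are from RefSeq (GRCm38.p6), on the gene's strand. Capitals mark matches on either strand to TAATCC, the core bound by Crx and other homeodomain factors of its class, and to TGCTGA, the half-site of Maf-type factors such as Nrl.
Sag promoter, chr1:87803430-87803679, plus strand: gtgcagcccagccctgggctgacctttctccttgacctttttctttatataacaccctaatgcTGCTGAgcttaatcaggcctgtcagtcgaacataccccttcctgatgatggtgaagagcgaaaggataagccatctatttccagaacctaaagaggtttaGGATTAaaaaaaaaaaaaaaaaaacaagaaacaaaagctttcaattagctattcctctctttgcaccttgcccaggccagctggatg

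Sag holds 1 match to each. Among windows of the same 250 bases, TAATCC matched 12.3% of the 106 windows of 79 genes called higher, 1.49% of the 134 windows of 122 genes called lower, and 5.25% of the 12930 windows of the 10064 tested genes with an entry. For TGCTGA the shares were 21.7%, 13.4% and 12.8%. Entries on chromosome 18 were left out of all these windows. A gene can have more than 1 start, and a match of letters is not a measured binding site.

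Pde6a, the catalytic alpha subunit of rod phosphodiesterase (GRCm38 chromosome 18, 61220315 to 61289924 on the plus strand), was at 5.51 and 8.17 CPM at P2, 28.2 and 26.4 CPM at P4, and 76.1, 58.5 and 108 CPM at P6. It rose by 2.43 ± 0.50 (SE, adjusted p = 0.0356). The inhibitory gamma subunit Pde6g (1.65 ± 0.27 SE, adjusted p = 0.022) also rose. Pde6b, the other catalytic subunit, was higher by 1.47 with an adjusted p of 0.0786 and did not pass. The 3 P6 libraries lay above the 4 earlier ones for all 3 subunits.

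Slc24a1, the sodium, calcium and potassium exchanger of the rod outer segment, was at 0.837 and 0.815 CPM at P2, 3.31 and 2.28 CPM at P4, and 14.1, 12.04 and 21.6 CPM at P6. It rose by 2.65 ± 0.34 (SE, adjusted p = 0.0112) and had the largest change of the list. Of the rod transducin genes, Gnat1 (1.64 ± 0.33 SE, adjusted p = 0.0332) and Gngt1 (1.68 ± 0.30 SE, adjusted p = 0.0243) rose, while Gnb1 (1.08, adjusted p = 0.0717) did not pass. Cngb1, the beta subunit of the rod cation channel, rose by 1.30 (adjusted p = 0.04), as did the chaperone Aipl1 by 1.22 (adjusted p = 0.00313), the RGS9 partner Gnb5 by 1.04 (adjusted p = 0.012) and Reep6, a membrane trafficking protein of rods, by 1.35 (adjusted p = 0.0205). Cnga1, the alpha subunit, had a change of 1.87 with an adjusted p of 0.0751.

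Prph2 and 2 other structural genes of the outer segment rose. Of 23 tested genes, 22 had a positive change, 3 were called higher and 0 lower, and the median was 0.89. Prph2, a tetraspanin of the disc rim, was at 352 and 376 CPM at P2, 666 and 548 CPM at P4, and 939, 1192 and 1122 CPM at P6, and rose by 1.20 ± 0.23 (SE, adjusted p = 0.0314). All P6 libraries lay above the earlier ones, and P4 above P2.

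Its promoter is printed because Prph2 is the called anchor of the disc genes. Capitals mark the single match found, to CCAAT, the box bound by the factor NF-Y, read here on the opposite strand as ATTGG.
Prph2 promoter, chr17:46910228-46910477, plus strand: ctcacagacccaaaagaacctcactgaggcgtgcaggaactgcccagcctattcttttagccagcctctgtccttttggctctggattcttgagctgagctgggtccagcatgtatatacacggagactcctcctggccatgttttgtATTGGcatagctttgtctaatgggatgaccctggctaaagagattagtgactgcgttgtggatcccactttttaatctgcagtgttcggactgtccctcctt

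The other called disc and segment genes were Fscn2, a photoreceptor actin bundler (1.14, adjusted p = 0.0286), and Tmem237, a protein of the ciliary transition zone (1.05, adjusted p = 0.0397). The abundant Rp1 (1.06, adjusted p = 0.244), Prom1 (0.75, adjusted p = 0.13) and Rpgrip1 (0.03, adjusted p = 0.973) did not pass. The count of 3 was 9 without P4 replicate 1 and 0 without either P2 library or any 1 of the P6 libraries, and 8 with 3 age groups fitted. Of 28 cilium transport genes 0 were called, with 5 higher and 1 lower at an unadjusted p under 0.05 in limma and a median of 0.17. Of 8 photoreceptor genes of the retinoid cycle 0 were called, with 5 higher at an unadjusted p under 0.05 in limma and a median of 0.87. Of the 8, 4 were called higher with 3 age groups fitted. The retinol dehydrogenase Rdh12 had a change of 1.80 with an adjusted p of 0.0771.

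Among 15 rod channels and pumps, 3 were called higher and 0 lower (median 0.62). Among them were Kcnma1, a calcium-activated potassium channel (2.08 ± 0.36 SE, adjusted p = 0.023) and Slc17a7, the vesicular glutamate transporter (1.20 ± 0.26 SE, adjusted p = 0.04). At P28 the mean of Slc17a7 was 7104 CPM, while Kcnma1 went from 17.4 CPM at P10 to 1.40 CPM at P28. Among 29 ribbon synapse genes, which serve transmitter release from photoreceptors, 3 were called higher and 0 lower (median 0.37): Slc17a7 again, the complexin Cplx4 (1.69 ± 0.37 SE, adjusted p = 0.0408) and the calcium channel subunit Cacnb2 (1.68 ± 0.32 SE, adjusted p = 0.03). Snap25 (0.34), Syp (0.47) and Stx3 (0.86) had the highest levels and did not pass. Without P2 replicate 2, or any 1 of the P6 libraries, neither list had a call. Without P2 replicate 1 the counts were 1 and 2, and without P4 replicate 1 they were 3 and 5, as they were with 3 age groups fitted.

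Bipolar cell genes gave the largest single changes. Of 17 listed genes, 6 were called higher and 0 lower, 16 had a positive change, and the median was 0.87. The P6 libraries lay above the earlier ones in 10 of them. With 3 age groups fitted 8 were called, and against P4 alone 6. The pooled count was 4 without P2 replicate 2 and 3, 0 and 2 without P6 replicates 1, 2 and 3.

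Grm6, the glutamate receptor of ON bipolar cell dendrites (GRCm38 chromosome 11, 50850685 to 50866208 on the plus strand), was at 0.107 and 0.0782 CPM at P2, 2.16 and 0.755 CPM at P4, and 20.8, 24.4 and 23.1 CPM at P6. It rose by 3.89 ± 0.35 (SE, adjusted p = 0.00235), the largest change of any gene called. It was near 0 at P2, low at P4, and within a narrow range in the 3 P6 libraries.

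Vsx1, a homeodomain factor of cone bipolar cells, was at 0.0277 and 0.0835 CPM at P2, 1.98 and 1.87 CPM at P4, and 17.1, 20.4 and 18.1 CPM at P6, and rose by 3.47 ± 0.40 (SE, adjusted p = 0.00991). Isl1, a LIM homeodomain factor of bipolar, amacrine and ganglion cells, was at 4.27 and 4.31 CPM at P2, 10.1 and 9.72 CPM at P4, and 54.99, 54.9 and 48.1 CPM at P6, and rose by 2.82 ± 0.29 (SE, adjusted p = 0.00436). Bhlhe23, a factor needed by rod bipolar cells, was at 0 and 0.0537 CPM at P2, 1.84 and 1.46 CPM at P4, and 9.67, 10.98 and 11.00 CPM at P6, and rose by 2.81 ± 0.38 (SE, adjusted p = 0.0119). For each of these 3 genes the order was the same, with P2 lowest, P4 next and P6 apart from both.

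Scgn, a calcium-binding protein of cone bipolar cells, rose by 2.80 ± 0.49 (SE, adjusted p = 0.0243). Trpm1, the channel downstream of Grm6, was at 2.42 and 1.33 CPM at P2, 2.35 and 0.899 CPM at P4, and 5.90, 5.43 and 9.13 CPM at P6. Trpm1 rose by 1.52 ± 0.27 (SE, adjusted p = 0.0243). Unlike the previous genes it did not differ clearly between P2 and P4. Gpr179 and Gabrr1, chosen after their values were seen, are a further component of the Grm6 cascade and a GABA receptor subunit of bipolar cells, and rose by 1.89 (adjusted p = 0.00235) and 2.48 (adjusted p = 0.00235).

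The other 11 bipolar genes did not pass. Prkca, the kinase that marks rod bipolar cells, had a change of 0.57 (adjusted p = 0.42), Cabp5 of 0.30 (adjusted p = 0.483), Pcp2 of 0.52 (adjusted p = 0.517), Lhx4 of 0.30 (adjusted p = 0.339) and Gng13 of -0.05 (adjusted p = 0.965).

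The Grm6 promoter is given because this gene changed most. Capitals mark the single match found, again to CCAAT on the opposite strand, and the window holds no TAATCC or TGCTGA.
Grm6 promoter, chr11:50850435-50850684, plus strand: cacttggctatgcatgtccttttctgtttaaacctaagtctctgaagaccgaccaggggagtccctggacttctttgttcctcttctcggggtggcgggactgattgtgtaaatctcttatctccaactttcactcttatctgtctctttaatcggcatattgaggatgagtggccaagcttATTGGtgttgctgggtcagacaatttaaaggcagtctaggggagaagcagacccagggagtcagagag

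Most markers of other retinal cells were not called. Over all genes tested, 0.822% were called higher and 1.22% lower. Of 19 tested amacrine, horizontal and ganglion cell genes, 1 was called higher, which is Isl1 again, 0 were called lower, and the median was 0.00. The call of Isl1 was lost without P6 replicate 2, and 3 of these genes were called lower without P4 replicate 1. The fit with 3 age groups called 1 higher and 4 lower. Their summed level was 356 to 471 CPM in the earlier libraries and 383 to 463 CPM at P6. Of 15 Müller glia genes 1 was called higher, Clu, and the median was -0.08, with sums of 1656 to 1870 CPM earlier and 1283 to 2098 CPM at P6. Clu was not called without P2 replicate 2 or any 1 of the P6 libraries. Of 17 cone genes 0 were called, with 4 higher and 4 lower at an unadjusted p under 0.05 in limma and a median of 0.03, and with 3 age groups fitted 1 was called higher. The summed bipolar list itself was at 1141 to 1356 CPM earlier and 1409 to 1627 CPM at P6, a sum that is mostly Otx2, which rods also express. The part of bipolar cells in the sorted libraries was not tested.

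Macrophage genes set 1 library apart. Their sum was 11.1 to 22.3 CPM in the earlier libraries, 12.2 CPM in P6 replicates 2 and 3, and 68.3 CPM in P6 replicate 1, where Csf1r, the receptor that macrophages need, was at 15.3 CPM. That library also had the highest share of mitochondrially encoded transcripts, 8.91% against 3.47% to 5.49% in the other 6. None of the 9 macrophage genes was called, and 0 had an unadjusted p under 0.05 in limma. Grm6, Vsx1 and Isl1 had similar values in P6 replicate 1 and in the other P6 libraries. Aif1, Ptprc, Tyrobp, Fcer1g and Lyz2 of that list were below the level tested.

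Trnp1, a nuclear protein known from cortical progenitors, was at 0.524 and 0.507 CPM at P2, 3.81 and 3.66 CPM at P4, and 19.97, 24.9 and 28.1 CPM at P6, and rose by 3.23 ± 0.44 (SE, adjusted p = 0.012). Further genes with large rises were Car10, a secreted neurexin partner (2.94 ± 0.40 SE, adjusted p = 0.012), Pcp4, a calmodulin regulator (2.28 ± 0.41 SE, adjusted p = 0.0246), and Hr, a corepressor of nuclear receptors (2.12 ± 0.37 SE, adjusted p = 0.0243). For each the 3 P6 libraries lay above the 4 earlier ones. At P28 the means of Car10 and Pcp4 were 1.86 and 2.83 CPM, below every P6 library.

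The genes called higher at P6 included some that were higher still at later ages and some that were lower again. Rods of P10 (n = 4), P14 (n = 3) and P28 (n = 4) took no part in the comparison. All 4 P28 libraries lay above all 3 P6 libraries for 61 of the 108 genes, against 30% of all genes tested. They lay all below for 39 of the 108, against 42.6%. Slc24a1 went from a mean of 1344 CPM at P10 to 10055 CPM at P28 and Pde6a from 2151 to 15369 CPM. Grm6 went from 43.2 to 2.46 CPM, Isl1 from 56.8 to 1.14 CPM and Vsx1 from 5.97 to 0.546 CPM. For replicate 3 of P10 and of P14 the labels name no sample of the older series. The group of 39 held Grm6, Vsx1, Isl1, Bhlhe23 and Scgn of the bipolar list, and Trnp1, Car10, Pcp4 and Kcnma1.

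P5 rods (n = 3) came from the newer series and not from the older one, so age and series cannot be told apart there. Their mean lay between the earlier and the P6 means for 34 of the 108 genes called higher, above P6 for 69 and below the earlier mean for 5. Grm6 was at 215 CPM in P5 rods and Isl1 at 116 CPM, above any other rod age, while Pde6a was at 7.21 CPM, below P4. For the genes called lower the P5 mean lay below P6 in 147 of 160, between in 10 and above the earlier mean in 3. The same counts were not made over all genes tested. The P5 counts therefore do not show whether the called genes differ from other genes.

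**Figure D4:**
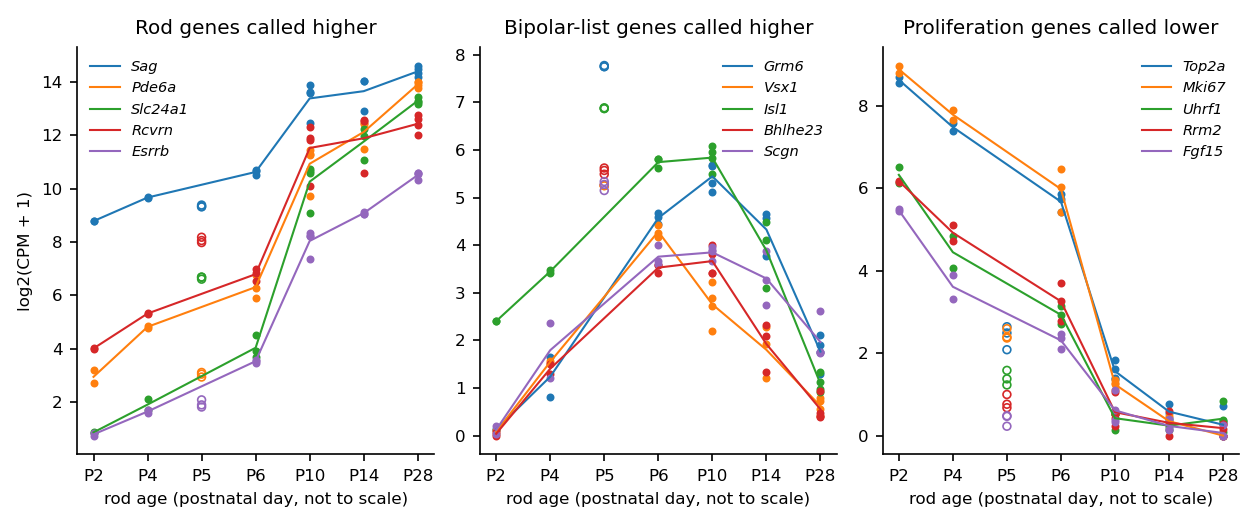
Level as log2(CPM + 1) (y axis) by rod age (x axis, ages not to scale) for 5 called genes each of the rod lists, the bipolar list and proliferation. Points are libraries, lines join the means of the ages other than P5, and open circles are P5 rods of the newer series. Rod genes climb to P28, bipolar-list genes lie highest at P6 to P10 apart from P5 and then drop, and proliferation genes are low from P10 on.

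Of 38 listed cell cycle genes, 25 were called lower at P6 and 0 higher, and 13 were not called. All 38 had a negative change, 37 had an unadjusted p under 0.05 in limma, and the median was -1.75. In 33 the P6 libraries lay below all earlier ones. The summed level was 4450 and 4337 CPM at P2, 1834 and 2125 CPM at P4 and 1085, 853 and 870 CPM at P6. The count of 25 was 15 against P4 alone, 17 without P2 replicate 1, 8 without P2 replicate 2, and 1, 0 and 0 without P6 replicates 1, 2 and 3. With 3 age groups fitted it was 33.

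Mki67, the proliferation antigen Ki-67 (GRCm38 chromosome 7, 135689784 to 135716361 on the minus strand), was at 444 and 505 CPM at P2, 202 and 239.9 CPM at P4, and 88.2, 42.2 and 64.7 CPM at P6. It fell, with a change of -2.36 ± 0.34 (SE, adjusted p = 0.0152). It was highest at P2, lower at P4 and lower again at P6, where every library still detected it.

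Its promoter is shown because Mki67 is the called anchor among the falls. Capitals mark matches to CCAAT and to TTTGAA, the cell cycle homology region found in genes of late cell division, on either strand.
Mki67 promoter, chr7:135716380-135716629, minus strand: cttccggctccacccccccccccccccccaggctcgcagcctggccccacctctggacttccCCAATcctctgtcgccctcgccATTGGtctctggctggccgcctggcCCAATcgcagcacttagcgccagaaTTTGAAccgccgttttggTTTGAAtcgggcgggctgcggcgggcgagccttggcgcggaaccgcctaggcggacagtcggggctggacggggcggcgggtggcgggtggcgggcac

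The window holds 3 matches to CCAAT and 2 to TTTGAA, none overlapping another. TTTGAA matched 29.1% of the windows of genes called lower, 8.49% of those called higher and 10.6% of all. CCAAT matched 58.2%, 38.7% and 35.3%. The E2F motifs TTTCCCGC and TTTGGCGC matched, as a pair, 8.21%, 0% and 2.33%.

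Top2a, the topoisomerase of dividing cells, was at 377 and 416 CPM at P2, 167 and 191 CPM at P4, and 57.2, 41.96 and 52.5 CPM at P6, with a change of -2.38 ± 0.31 (SE, adjusted p = 0.0115). Ccnb1, the mitotic cyclin, was at 68.9 and 76.3 CPM at P2, 32.4 and 40.2 CPM at P4, and 12.8, 9.46 and 9.34 CPM at P6, with a change of -2.19 ± 0.29 (SE, adjusted p = 0.0115). Rrm2, the inducible subunit of ribonucleotide reductase, was at 71.99 and 70.8 CPM at P2, 25.6 and 33.6 CPM at P4, and 12.1, 8.69 and 5.92 CPM at P6, with a change of -2.29 ± 0.37 (SE, adjusted p = 0.0205). In these 3 genes no P6 library reached the lowest earlier library.

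Other genes called lower were Birc5 (-2.37, adjusted p = 0.0206), Aspm (-2.24, adjusted p = 0.0119), Bub1 (-2.19, adjusted p = 0.0205), Kif18b (-2.15, adjusted p = 0.0311) and Depdc1a (-2.20, adjusted p = 0.0112). Stil, which builds centrioles, changed by -2.19 (adjusted p = 0.0205). Also called lower were Mcm3, a helicase subunit (-2.23, adjusted p = 0.0274), the exonuclease Exo1 (-2.18, adjusted p = 0.0314) and Esco2, an acetyltransferase of cohesin (-2.17, adjusted p = 0.017). Kif11 is listed in 2 rows with identical values and was called in both, so the 160 rows hold 159 different genes.

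Ccnd1, the D-type cyclin of retinal progenitors, was at 1134 and 1022 CPM at P2, 334 and 446 CPM at P4, and 262, 172 and 172 CPM at P6. Its change was -1.70 ± 0.40 (SE, adjusted p = 0.0523), just short of the threshold, although all P6 libraries lay below the earlier ones. Pcna (-0.91, adjusted p = 0.046) passed the p threshold but not the fold, and Mcm7 (-0.53, adjusted p = 0.175) did not pass. Of 12 inhibitors of cyclin-dependent kinases and related arrest genes 0 were called, with 0 higher and 2 lower at an unadjusted p under 0.05 in limma. Cdkn1b, the inhibitor p27, had a change of -0.10 (adjusted p = 0.739).

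Uhrf1, which maintains DNA methylation through replication, was at 91.3 and 68.9 CPM at P2, 15.8 and 27.5 CPM at P4, and 7.85, 6.61 and 5.57 CPM at P6, with the largest fall of the genes called, -2.46 ± 0.50 (SE, adjusted p = 0.0356). Hells, a chromatin remodeler of dividing cells, fell as well (-1.53 ± 0.29 SE, adjusted p = 0.0274). They were the 2 called genes among 35 tested genes of the nuclear envelope and chromatin, whose median was -0.27. The maintenance methyltransferase Dnmt1 (-0.52, adjusted p = 0.136) and the lamin Lmnb1 (-0.92, adjusted p = 0.0621) did not pass. Without P2 replicate 1 the count was 1, without P4 replicate 1 it was 3, and without P2 replicate 2 or any 1 of the P6 libraries it was 0.

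Some retinal progenitor genes were called lower at P6. Of 27 tested genes, 4 were called lower and 0 higher, 3 had a positive change, and the median was -0.82. Fgf15, a growth factor of retinal progenitors, was at 43.9 and 42.7 CPM at P2, 8.99 and 13.97 CPM at P4, and 4.52, 4.15 and 3.29 CPM at P6, with a change of -2.23 ± 0.49 (SE, adjusted p = 0.0421). Nr2e1, a nuclear receptor that keeps progenitors dividing, was at 57.96 and 67.1 CPM at P2, 49.9 and 54.7 CPM at P4, and 29.6, 20.1 and 21.9 CPM at P6, with a change of -1.24 ± 0.16 (SE, adjusted p = 0.0119). The larger step of Fgf15 lay between P2 and P4, and that of Nr2e1 between P4 and P6.

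Sox11 (-1.36, adjusted p = 0.0356) and the RNA-binding protein Zfp36l1 (-1.07, adjusted p = 0.0452) fell as well. The progenitor factors Pax6 (-0.91, adjusted p = 0.209), Sox2 (-0.73, adjusted p = 0.253) and Hes1 (-0.82, adjusted p = 0.369) did not pass. The count of 4 was 1 without either P2 library or P6 replicate 1, 10 without P4 replicate 1 and 0 without P6 replicate 2 or 3, and 6 with 3 age groups fitted. The share of progenitors left in the sort was not tested.

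Among 20 proneural factors and Notch pathway genes, 1 was called lower and 0 higher (median -0.82). The Notch ligands Dll1 (-0.91, adjusted p = 0.0559) and Dll3 (-1.01, adjusted p = 0.0603) did not pass, nor did Neurod4 (-0.27, adjusted p = 0.591). The call was lost without either P2 library and without any 1 of the P6 libraries, and there were 6 calls without P4 replicate 1 or with 3 age groups fitted. Among 27 genes of neurite growth and immature neurons, L1cam, an axonal adhesion molecule, was the 1 called (-1.02 ± 0.19 SE, adjusted p = 0.0266), and the median was -0.08. It was not called without P2 replicate 2 or any 1 of the P6 libraries, and there were 2 calls without P4 replicate 1 or with 3 age groups fitted.

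Most energy genes were not called. Over all genes tested, 0.822% were called higher and 1.22% lower. Of 28 genes of glycolysis and lactate handling, 2 were called higher and 0 lower (median 0.18). They were Hk1, a hexokinase (1.34 ± 0.21 SE, adjusted p = 0.0205), and Ckmt1, a mitochondrial creatine kinase (1.43 ± 0.31 SE, adjusted p = 0.0427). Ldha (0.34), Pkm (0.23) and Ckb (-0.08), the most abundant, did not pass. The 2 calls became 1 without P2 replicate 1, 3 without P4 replicate 1, and 0 without P2 replicate 2 or any 1 of the P6 libraries. Of 36 nuclear genes of the respiratory chain 0 were called. Of these, 23 were higher and 0 lower at an unadjusted p under 0.05 in limma, 32 had a positive change, and 17 had all P6 libraries above, with a median of 0.41. Among all 13134 genes tested, 2442 had such a p, both directions together. The 13 mitochondrially encoded genes also gave 0 calls, with 1 higher at an unadjusted p under 0.05 and a median of 0.43.

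**Figure D5:**
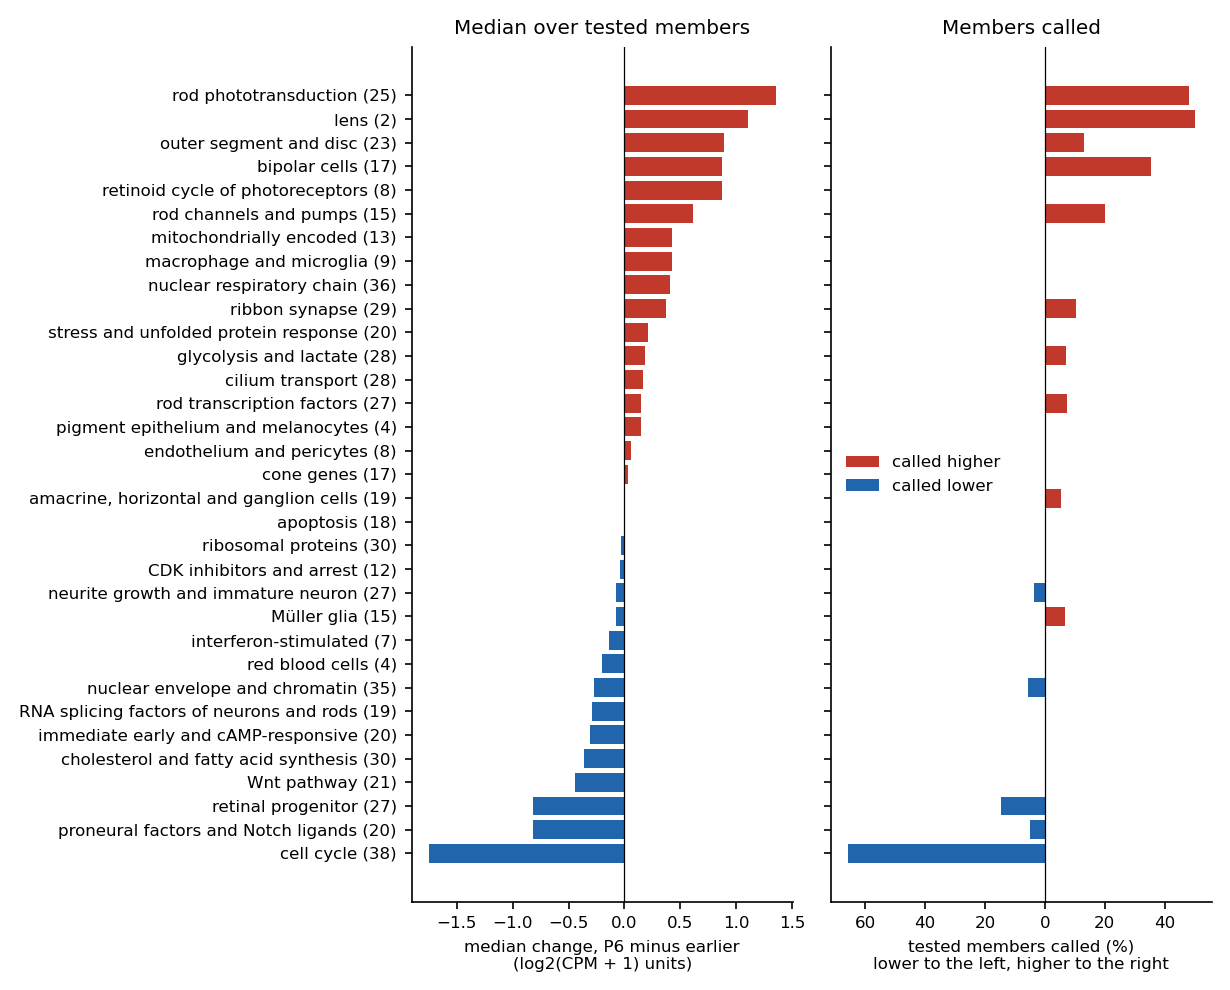
Median change of the tested members of each list (left, log2(CPM + 1) units, P6 minus earlier) and the percent of tested members called (right, higher in red, lower in blue). Numbers in parentheses are the members tested. Phototransduction has the highest median and the cell cycle the lowest, and the lens list rests on 2 tested genes.

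Several other groups had no called gene in the pooled fit. Their counts at an unadjusted p under 0.05 in limma stand beside 2442 of all 13134 genes tested, both directions together. Of 30 genes of cholesterol and fatty acid synthesis, 3 were higher and 13 lower at an unadjusted p under 0.05 in limma, with a median of -0.36. Of 21 Wnt pathway genes, 0 were higher and 8 lower, with a median of -0.44. Of 19 splicing factors of neurons and rods, 1 was higher and 6 lower, with a median of -0.29. The 20 immediate early genes had 0 higher and 4 lower, the 20 stress genes 6 and 0, the 18 apoptosis genes 1 and 4, and the 7 interferon-stimulated genes 1 and 1. Of 30 ribosomal protein genes, 0 had an unadjusted p under 0.05 in either direction, with a median of -0.03. The lists of endothelium, red blood cells and pigment epithelium had 0 calls, and of the 2 tested lens genes Cryab, a small heat shock protein, was called higher (1.86 ± 0.33 SE, adjusted p = 0.0246), at 5.37 to 6.53 CPM in the P6 libraries. Cryab was not called without P2 replicate 2 or any 1 of the P6 libraries. Of the lists with 0 calls, some gained calls without P4 replicate 1: 4 retinoid cycle genes and 1 cone gene higher, and 2 cholesterol, 2 arrest, 1 splicing, 1 immediate early and 1 Wnt gene lower. With 3 age groups fitted, calls lower came to 2 cholesterol genes, 1 arrest gene, 1 immediate early gene and 1 endothelial gene.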

How the data were processed

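Kallisto quantified the reads, per the submitters' processing notes, with no version, index, genome build or strand setting stated. The deposited values are the authors' normalized CPM (a signal per gene and library), with the scaling between libraries not stated. They are not whole multiples of a read, so depth and counting error per library are unknown and no count model was fitted. All 33 value columns could be matched to samples, and 7 were fitted.

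Values were analysed as log2(CPM + 1) with limma 3.58.1 in R 4.3.3 (moderated variance with mean trend). The 13134 genes that reached 1 CPM in 3 or more of the 7 libraries were tested, with Benjamini-Hochberg adjustment over all of them. A call needed an adjusted p under 0.05 together with a change of 2-fold or more. Lists were described by counts and medians, with no test of a list. Members, lists and tests were chosen with earlier results of these data known.

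Named genes were fixed anchors and the top 15 called genes in each direction (10 CPM or more on average in either group, no overlap, predicted genes left out). In each list they were up to 6 called members, any against its majority and up to 3 abundant ones that did not pass. Some other members are named for their role, after their values were seen. Gene coordinates are GENCODE M21 (GRCm38), matched by identifier for 99.05% of genes, and promoter windows are RefSeq, GRCm38.p6. Identical values were found for 210 rows, and 101 symbols repeat. Several genes picked by these rules are not reported here. The procedure was tested on simulated data. Alternatives covered the pseudocount, filter, scaling, variance model, age grouping, replicate block and each library left out.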

Additional observations from a re-analysis of the deposited data

How the results depend on the processing

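Genes called higher and lower, 108 and 160 as reported, were 59 and 84 with a pseudocount of 5, 30 and 13 with no filter on low values, 51 and 45 against P4 alone, and 322 and 574 against P2 alone. With 3 age groups fitted 292 were lower, and with no fold threshold 203 were higher. With all P2, P4, P6, P10, P14 and P28 rods in one fit 269 were lower. Phototransduction calls (12) became 3 with no filter, 19 with 3 age groups, 7 against P4 alone and 22 against P2 alone. Cell cycle calls (25) became 5 with no filter and 15 against P4 alone. Quantile, median-of-ratios and one-million scaling gave 92 to 109 higher and 160 to 171 lower, and the split of calls moved by under 10 percentage points. With the replicate number as a replicate block, 0 genes were higher and 0 lower, with 1692 at an unadjusted p under 0.05 in limma, and 0 phototransduction, 0 cell cycle and 0 bipolar genes were called. Deviations of same-numbered libraries from their age means correlated at -0.444 to 0.185. With 2 libraries at P2 and at P4, the deviations within each age mirror each other. These values therefore cannot tell whether same-numbered libraries share more than a number.

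Leaving out each library in turn gave 0 to 174 genes higher and 0 to 311 lower, with 0 to 19 phototransduction, 0 to 30 cell cycle and 0 to 7 bipolar genes called. Of 37 named genes, 32 lost their call without P6 replicate 2. The highest adjusted p over these fits was 0.0514 for Grm6 and 0.0844 for Isl1. No called gene changed sign in any setting in which it was tested, which was fixed in advance for fits that only left libraries out. The cause of these changes was not tested. Depth is unknown, which limits statements on genes near 0 CPM.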
